A study of Mus musculus with 28 samples.

Results

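Colon organoids in which *Apc* alone could be deleted, called AC organoids, were compared between the vehicle ethanol (EtOH) and 4-hydroxytamoxifen (4-HT), across all genes of the deposited counts. These were 4 of the 28 libraries of the series, 2 with EtOH and 2 with 4-HT, and 13519 genes were tested. AC organoids were grown from colon epithelium of a C57BL/6N mouse of the genotype VillinCreERT2::APCflox/flox. In this line the *Villin* promoter, which is active in intestinal epithelium, drives a Cre recombinase that 4-HT activates, and Cre then removes the part of *Apc* between its loxP sites. Both groups shared this genotype and came from 1 donor line. The labels number the libraries of each treatment as duplicates 1 and 2. Exposure to EtOH or to 3.5 µM 4-HT lasted 24 hours, and the RNA was taken 3 days after recombination. The study describes its organoid replicates as different passages of a line, and AC held passages of 1 donor line only. The p-values rest on a spread estimated over all groups, in which the other genotypes had 2 donor lines each. In the AC libraries alone 37 genes rose and 216 fell. PAC organoids, used below for comparison, also carried a *Trp53* LSL-R172H allele, and BAC organoids also carried a *Braf* floxV600E allele, each with 2 donor lines and 4 libraries per treatment. All cultures grew with Wnt3a, R-spondin-1, Noggin, EGF and the GSK3 inhibitor CHIR99021, so Wnt signaling was stimulated in the EtOH group too. No line without the floxed *Apc* allele was treated, and an effect of 4-HT or of Cre itself cannot be told apart from that of the deletion.

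APC is a scaffold of the destruction complex, which marks β-catenin for degradation when no Wnt ligand is present. Without it, β-catenin accumulates, enters the nucleus and acts with TCF/LEF proteins on target genes. At the base of the colonic crypt this signal maintains stem cells, and it weakens toward the surface, where absorptive colonocytes mature. Loss of *APC* is the most common early lesion in human colorectal tumors.

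The AC libraries held between 25525901 and 28959360 counts. Levels are given as CPM, the counts of a gene relative to the library's total, and were scaled with TMM factors. The factors were 0.943 and 0.932 with EtOH and 1.10 and 1.09 with 4-HT, so they differed by treatment. Gene features that collect ribosomal RNA reads, among them *Lars2*, *Gm23935*, *Gm26917* and the mitochondrial rRNA genes, took 5.03% and 10.2% of the counts of the EtOH libraries and 4.10% and 6.54% of those of the 4-HT libraries. Epithelial markers were present, with all 12 of 12 counted and summed levels between 20910 and 26980 CPM. Of 10 fibroblast markers, 2 were among the genes counted, with summed levels between 3.77 and 10.7 CPM, and of 10 leukocyte and endothelial markers, 4 were counted, with summed levels between 4.98 and 7.30 CPM. With the replicate block *Pdgfrb*, a pericyte and fibroblast receptor, was called as a fall, from 5.30 and 4.54 CPM to 1.70 and 1.47 CPM (change −1.63, adjusted p = 0.0846, and 0.00304 with the block). *Cd68*, a macrophage marker named after its values were seen, was called as a rise there, from 1.40 and 1.85 CPM to 2.51 and 4.78 CPM (change 1.17, adjusted p = 0.0778, and 0.00786 with the block), while the other 3 counted markers of that list had negative changes and the list's median was −0.35. *Col1a1*, *Ptprc* and *Cdh5*, which define those cells, were not among the genes counted.

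After 4-HT, 25 of 40 genes of mature colonocytes fell and none rose, while 10 of 22 stem cell genes, 13 of 31 DNA replication genes and 8 of 28 mitosis genes rose and none of these lists held a fall, although 1 stem cell gene fell with the replicate block described below. At an adjusted p-value under 0.01, 406 genes rose, 3% of those tested, and 574 fell, 4.25% of those tested. The median change was 0.69 on the log2 scale for the genes that rose and −0.99 for those that fell, and 69 rises and 283 falls reached 2-fold. The EtOH and 4-HT libraries did not overlap for any of the 980 genes, so each moved in the same direction in both duplicates. These genes were chosen by a test on the same libraries, which favors both outcomes, so this is no separate support. Of all genes, 57.9% had no overlap. Same-numbered EtOH and 4-HT libraries deviated together from their group means. A replicate block was therefore also fitted, in which each donor line and duplicate number together formed a block. With it 1007 genes rose and 1216 fell, 7.45% and 8.99% of those tested, and 974 of the 980 were called again in the same direction. The calls rested on each library. Without EtOH duplicate 1, 14 genes rose and 56 fell, and without EtOH duplicate 2, 110 rose and 368 fell. Without 4-HT duplicate 1, 103 rose and 174 fell, and without 4-HT duplicate 2, 43 rose and 64 fell. With library size alone as the scaling, the median of all genes shifted from 0.008 to 0.23 on the log2 scale, and 1511 genes rose against 302 that fell. The directions below are therefore relative to TMM scaling, and fewer cells of a type cannot be told apart from less RNA per cell. Some genes belong to more than 1 list, among them *Ascl2*, *Lgr5*, *Rnf43*, *Myc*, *Phlda1*, *Car1*, *Fabp2* and *Foxa3*. The counts of such lists are not independent of each other.

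**Figure D1:**
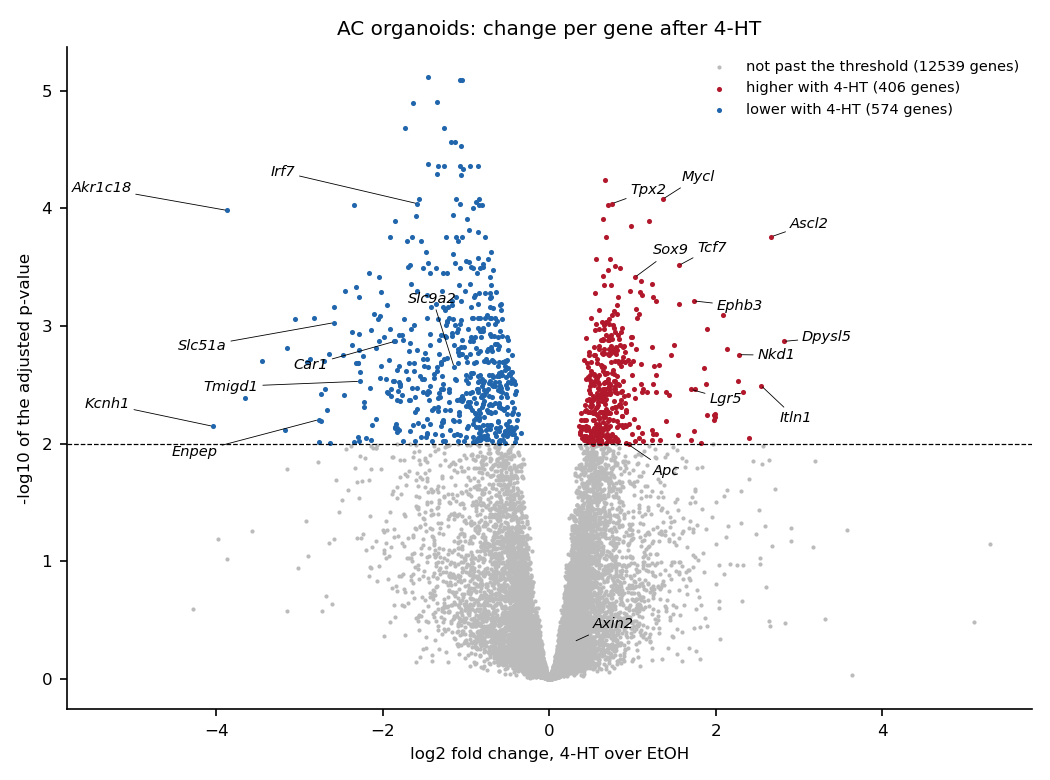
The log2 fold change of each gene in AC organoids, 4-HT over EtOH (x axis), against −log10 of its adjusted p-value (y axis), with a dashed line at an adjusted p-value of 0.01. The 574 genes that fell reach farther from 0 than the 406 that rose, *Ascl2* is among the largest rises and *Axin2* lies among the genes that did not pass.

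*Apc* itself (ENSMUSG00000005871, GRCm38 chromosome 18, 34220924 to 34322552, plus strand, protein coding) had 37.4 and 39.1 CPM with EtOH and 73.8 and 70.7 CPM with 4-HT. Both 4-HT libraries lay above both EtOH libraries. The log2 fold change was 0.92 ± 0.24 (SE, n = 2 libraries per group, edgeR adjusted p = 0.00979), and 4.96e-05 was the adjusted p with the replicate block. The call was close to the threshold and was lost with DESeq2's size factors (adjusted p = 0.0107), without the PAC 4-HT libraries of duplicate 1 (adjusted p = 0.0101) and without any 1 of the AC libraries (adjusted p between 0.0471 and 0.0891), with changes between 0.89 and 0.95. The counts cover the whole gene, so they do not show whether the floxed part was lost, and the level of *Apc* reads is no check of the deletion. Of the 13 counted genes of the destruction complex, *Apc* was the only one that passed, 2 rose with the replicate block, and the median of the list was −0.04, or 0.185 with library size alone. *Ctnnb1*, which encodes β-catenin, had 907 and 809 CPM with EtOH and 740 and 764 CPM with 4-HT, a change of −0.19 that did not pass (adjusted p = 0.367) and was 0.03 with library size alone.

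Among genes that restrain Wnt signaling as a feedback, *Nkd1* and *Rnf43* rose. Of 18 listed, 12 were counted, 11 had a positive change, 2 passed as rises and none as falls, and the list's median was 0.91 against 0.008 for all genes. *Nkd1*, which binds Dishevelled and dampens the pathway, had 4.55 and 2.06 CPM with EtOH and 20.6 and 11.6 CPM with 4-HT, a log2 fold change of 2.28 ± 0.46 (adjusted p = 0.00175). *Rnf43*, a ubiquitin ligase that removes Frizzled receptors from the surface, had 58.9 and 74.0 CPM with EtOH and 135 and 153 CPM with 4-HT, a change of 1.11 ± 0.19 (adjusted p = 0.000549). *Dact1*, another Dishevelled-binding protein and not a member of that list, was low throughout, with 17 and 5 counts with EtOH and 94 and 50 with 4-HT, and rose by 2.40 ± 0.61 (adjusted p = 0.00897). Without EtOH duplicate 1 the change of *Dact1* was 3.47 and that of *Nkd1* 2.96, and without EtOH duplicate 2 that of *Dact1* was 1.81. *Axin2*, the scaffold most often used as a Wnt readout, had 51.1 and 76.3 CPM with EtOH and 77.0 and 79.7 CPM with 4-HT. The second EtOH library reached nearly the level of the 4-HT libraries, and the change of 0.30 ± 0.26 did not pass (adjusted p = 0.481).

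Among transcription factors of the pathway, 2 of 14 counted genes passed, both upward. *Tcf7*, a TCF family member and itself a Wnt target, had 8.45 and 10.6 CPM with EtOH and 31.2 and 24.7 CPM with 4-HT, a change of 1.56 ± 0.25 (adjusted p = 0.000305). *Sp5*, a zinc finger factor induced by Wnt, had 7.89 and 9.96 CPM with EtOH and 33.8 and 26.2 CPM with 4-HT, a change of 1.75 ± 0.39 (adjusted p = 0.00345). *Lef1* had 0.439 and 1.14 CPM with EtOH and 2.48 and 1.44 CPM with 4-HT, and its change of 1.32, or 2.15 without EtOH duplicate 2, did not pass (adjusted p = 0.0667). *Tcf7l2*, the main TCF factor of the adult intestine, had 159 and 168 CPM with EtOH and 108 and 104 CPM with 4-HT. Its change of −0.63 did not pass (adjusted p = 0.0439) but was called as a fall with the replicate block (adjusted p = 0.000774). *Tcf7l2* is named here after its values were seen.

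The 250 bases before the start of *Sp5* and *Atoh1* are shown because, of the 22 listed Wnt, stem cell and Notch genes that rose, 16 have a promoter window in RefSeq and these 2 hold a TCF/LEF-type motif there. The motifs searched on both strands were CTTTGAT or CTTTGAA or CTTTGTT or CTTTGTA, and 14.8% of all 32851 RefSeq windows of this length hold at least 1. Matches are in capitals, and the sequences run 5′ to 3′ on the gene's strand in build GRCm38.p6, at chr2:70474673-70474922 on the plus strand and chr6:64728875-64729124 on the plus strand.
Sp5: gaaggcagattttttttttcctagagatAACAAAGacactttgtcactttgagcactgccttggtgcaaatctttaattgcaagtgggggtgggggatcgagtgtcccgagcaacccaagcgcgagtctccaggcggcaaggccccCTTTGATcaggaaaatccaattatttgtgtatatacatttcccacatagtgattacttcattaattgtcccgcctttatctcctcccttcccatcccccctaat
Atoh1: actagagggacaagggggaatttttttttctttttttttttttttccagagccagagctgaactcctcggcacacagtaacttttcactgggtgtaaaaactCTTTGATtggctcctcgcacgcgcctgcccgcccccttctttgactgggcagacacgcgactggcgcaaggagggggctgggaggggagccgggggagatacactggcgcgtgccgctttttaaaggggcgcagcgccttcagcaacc
The *Sp5* window holds 2 matches and the *Atoh1* window 1. Matches are a description of these letters, and TCF/LEF binding was not measured.

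Of 25 markers of crypt base stem cells listed, 22 were counted, 10 rose, none fell and the median was 0.88. With the replicate block 12 rose and 1 fell. The fall was *Prom1*, a membrane glycoprotein named after its values were seen, with 884 and 973 CPM with EtOH and 540 and 692 CPM with 4-HT (change −0.59, adjusted p = 0.0292, and 0.00418 with the block). The largest rise of the list was that of *Ascl2* (ENSMUSG00000009248, chromosome 7, 142966829 to 142969264, minus strand), a basic helix-loop-helix factor that sets the stem cell state downstream of Wnt. It had 10.2 and 12.1 CPM with EtOH and 95.2 and 46.1 CPM with 4-HT, a log2 fold change of 2.67 ± 0.40 (adjusted p = 0.000174). The 4-HT library of duplicate 1 was higher than that of duplicate 2, and both lay far above the EtOH libraries. Without 4-HT duplicate 1 the change was 2.05. *Lgr5* (ENSMUSG00000020140, chromosome 10, 115450311 to 115587780, minus strand), the R-spondin receptor that marks these cells, had 20.7 and 36.8 CPM with EtOH and 91.5 and 95.2 CPM with 4-HT. Its change was 1.70 ± 0.38 (adjusted p = 0.00345). *Ptpro*, a receptor tyrosine phosphatase, rose by 2.13 and *Sorcs2*, a sorting receptor, by 1.56 on the log2 scale. *Olfm4*, a stem cell marker of the small intestine, was not among the genes counted.

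Of 20 Wnt target genes listed, 18 were counted, 6 rose, none fell and the median was 0.85. With the replicate block 14 rose, and 12 with library size alone. *Myc*, the growth-promoting transcription factor, had 102 and 147 CPM with EtOH and 308 and 285 CPM with 4-HT, a change of 1.25 ± 0.26 (adjusted p = 0.00219). *Sox9*, a factor of crypt base and Paneth cells, had 203 and 218 CPM with EtOH and 436 and 423 CPM with 4-HT, a change of 1.03 ± 0.17 (adjusted p = 0.000385). *Ccnd1*, encoding cyclin D1, had 42.7 and 68.8 CPM with EtOH and 80.7 and 113 CPM with 4-HT, and its change of 0.80 did not pass (adjusted p = 0.063) except with the block (adjusted p = 0.00632). In *Ephb3*, a receptor that sorts cells along the crypt, the levels were 46.6 and 58.8 CPM with EtOH and 196 and 154 CPM with 4-HT, a rise of 1.73 ± 0.30 (adjusted p = 0.000611). *Efnb1*, a ligand of Ephb receptors that is found toward the surface, moved the opposite way, from 190 and 189 CPM to 116 and 117 CPM, and fell by 0.70 (adjusted p = 0.00045). *Ephb3* and *Efnb1* were the 1 rise and the 1 fall among 14 counted Eph and ephrin genes. Of these 14, 8 had a positive and 6 a negative change, and with the block 4 rose and 2 fell.

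**Figure D2:**
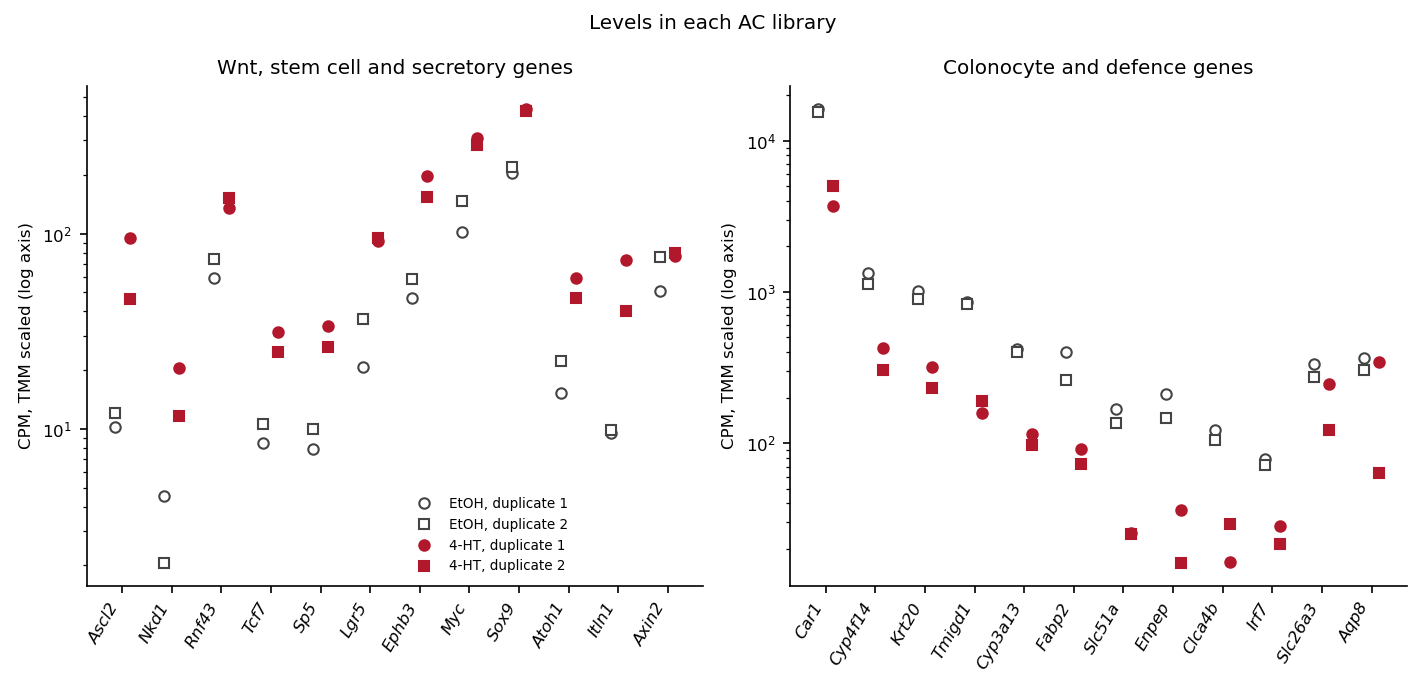
TMM-scaled CPM (log axis) of 12 Wnt, stem cell and secretory genes and 12 colonocyte and defense genes in each AC library, open symbols for EtOH, filled for 4-HT, circles for duplicate 1 and squares for duplicate 2. *Axin2* and *Aqp8* are shown as genes whose groups nearly meet or overlap, while the groups of *Ascl2*, *Lgr5*, *Car1* and *Krt20* are apart.

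Most genes of mature colonocytes fell. All 40 of 40 listed genes were counted and all had a negative change, 25 passed as falls and none as rises, and the median was −1.49, or −1.43 in duplicate 1 and −1.63 in duplicate 2. The summed level of the list was 50890 and 47000 CPM with EtOH and 19310 and 18760 CPM with 4-HT. *Car1* (ENSMUSG00000027556, chromosome 3, 14766216 to 14808368, minus strand), a carbonic anhydrase of the colon surface, had 16280 and 15390 CPM with EtOH and 3688 and 5042 CPM with 4-HT. It fell by 1.86 ± 0.36 on the log2 scale (adjusted p = 0.00135). *Krt20*, a keratin of differentiated cells, had 1012 and 901 CPM with EtOH and 321 and 231 CPM with 4-HT and fell by 1.79 ± 0.41 (adjusted p = 0.00437). The subunits of the basolateral bile acid exporter, *Slc51a* and *Slc51b*, fell together. *Slc51a* had 168 and 135 CPM with EtOH and 25.5 and 24.9 CPM with 4-HT, a change of −2.59 ± 0.47 (adjusted p = 0.000936), and *Slc51b* changed by −2.48 ± 0.50 (adjusted p = 0.00176). The brush border peptidase *Anpep* had 38.8 and 23.2 CPM with EtOH and 7.17 and 2.05 CPM with 4-HT and changed by −2.74 (adjusted p = 0.00641). Without 4-HT duplicate 1 its change was −3.92 (adjusted p = 0.0112), and without 4-HT duplicate 2 it was −2.11 (adjusted p = 0.105). The chloride channel regulator *Clca4b* changed by −2.33 and the adhesion protein *Tmigd1* by −2.28. *Enpep*, another brush border peptidase, had 211 and 147 CPM with EtOH and 36.1 and 16.1 CPM with 4-HT and changed by −2.77 (adjusted p = 0.00625), or by −3.47 without 4-HT duplicate 1.

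Several transporters used as colonocyte markers were less clear. *Aqp8*, a water channel of surface cells, had 366 and 304 CPM with EtOH but 343 and 63.5 CPM with 4-HT. The 4-HT library of duplicate 1 lay between the EtOH libraries, and the change of −0.72 ± 1.17 did not pass (adjusted p = 0.734). *Slc26a3*, the chloride bicarbonate exchanger, had 335 and 275 CPM with EtOH and 247 and 123 CPM with 4-HT, a change of −0.72 ± 0.57 that did not pass (adjusted p = 0.421) and was −1.31 without 4-HT duplicate 1. Of 24 counted ion transport genes, 3 fell and none rose. They were *Car1*, the sodium proton exchanger *Slc9a2* with −1.15 and the chloride channel *Clcn2* with −0.99. With the replicate block 5 fell and 3 rose, and with library size alone 2 fell, 2 rose and the median went from −0.25 to −0.03.

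Of 30 enzymes that process foreign compounds, all counted, 13 fell, none rose and the median was −1.05. *Cyp3a13*, a cytochrome P450, had 418 and 401 CPM with EtOH and 114 and 97.3 CPM with 4-HT, a change of −1.95 ± 0.44 (adjusted p = 0.00364). *Cyp2c65* changed by −1.91, *Cyp4f14* by −1.74, the glucuronosyltransferase *Ugt2b5* by −2.21 and the carboxylesterase *Ces2c* by −1.80. Of 28 counted genes of fatty acid oxidation and PPAR signaling, 7 fell, 14 with the block, none rose in either fit, and the median was −0.61. *Fabp2*, the intestinal fatty acid binding protein, had 403 and 263 CPM with EtOH and 91.3 and 73.2 CPM with 4-HT and changed by −2.02 ± 0.34 (adjusted p = 0.000518). *Ppara*, the nuclear receptor that drives fatty acid oxidation, changed by −1.32, *Cidec*, a lipid droplet protein, by −1.86, and the fatty acid transporter *Slc27a4* by −1.04. Of 21 cholesterol synthesis genes none passed under TMM scaling without the block, with a median of −0.28, and 1 rose with library size alone. With the block *Msmo1* and *Stard4*, a sterol oxidase and a sterol carrier named after their values were seen, fell, with changes of −0.57 and −0.49 (adjusted p = 0.0383 and 0.0116, and 0.00959 and 0.00402 with the block).

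Of 26 counted regulators of intestinal identity, 1 rose, 2 fell and the median was −0.07. The riser was *Foxa3*, which is also a member of the goblet cell list below. With library size alone 3 rose, 1 fell and the median was 0.15. *Cdx2*, the homeobox factor of intestinal epithelium, had 325 and 305 CPM with EtOH and 340 and 186 CPM with 4-HT, and its change did not pass. The bile acid receptor *Nr1h4* changed by −1.46 and the mineralocorticoid receptor *Nr3c2* by −1.07. Among general epithelial markers, *Epcam* changed by −0.47 (adjusted p = 0.0112, and 0.00562 with the block), *Cdh1* by −0.18 and *Cldn7* by −0.53, which passed as the only fall of the 12 (4 with the block) but not with library size alone. With library size alone the median of these markers went from −0.22 to about 0.

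*Alpi*, the intestinal alkaline phosphatase, is named after its values were seen, because it is 1 of 2 colonocyte genes that fell, out of 22 with a RefSeq window, whose 250 upstream bases hold the HNF4-type motif CAAAGTCCA on either strand, *Muc13* being the other. Of all windows, 0.384% hold it. *Alpi* had 436 and 311 CPM with EtOH and 131 and 57.3 CPM with 4-HT, a change of −1.99 ± 0.38 (adjusted p = 0.00124), or −2.70 without 4-HT duplicate 1. Its window, at chr1:87101607-87101856 on the minus strand in GRCm38.p6, is shown with the match in capitals.
Alpi: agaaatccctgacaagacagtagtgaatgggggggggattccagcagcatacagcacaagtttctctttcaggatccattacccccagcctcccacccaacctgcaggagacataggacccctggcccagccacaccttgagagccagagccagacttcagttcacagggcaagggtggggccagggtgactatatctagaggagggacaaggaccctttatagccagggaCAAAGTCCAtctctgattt

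Of 20 counted genes of Notch signaling and secretory commitment, 5 rose, none fell and the median was 0.64, and 9 rose with library size alone. *Atoh1*, the factor that commits cells to secretory fates, had 15.2 and 22.3 CPM with EtOH and 59.2 and 46.8 CPM with 4-HT, a rise (adjusted p = 0.00146) of 1.95 in duplicate 1 and 1.07 in duplicate 2 on the log2 scale. The Notch target *Hes5* was barely detected, with 7 and 3 counts with EtOH and 32 and 30 with 4-HT, and rose by 2.33, or by 3.00 without EtOH duplicate 1. *Hes6* rose by 0.97, *Lfng*, which modifies Notch receptors, by 1.12, and *Dtx4* by 0.90. *Hes1*, the main Notch effector of the crypt, had 60.4 and 76.2 CPM with EtOH and 115 and 91.7 CPM with 4-HT, and its change of 0.60 did not pass (adjusted p = 0.0368), but did with library size alone.

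Of 15 counted genes of deep crypt secretory and Paneth cells, 2 rose, 1 fell and the median was 1.10, or 1.35 in duplicate 1 and 0.39 in duplicate 2. With the block 6 rose, and 4 with library size alone. *Itln1*, a lectin secreted by goblet and Paneth cells, had 9.49 and 9.92 CPM with EtOH and 73.1 and 40.2 CPM with 4-HT, a change of 2.54 ± 0.56 (adjusted p = 0.00321). *Kit*, the receptor that marks deep crypt secretory cells, rose by 1.28, and *Nos1ap* changed by −1.10. *Lyz1*, the Paneth cell lysozyme, which is nearly identical to a second lysozyme gene, had 37.1 and 92.0 CPM with EtOH and 473 and 291 CPM with 4-HT. Its change of 2.57 ± 0.67 missed the threshold (adjusted p = 0.0105, and 0.00428 with the block) and was 3.37 without EtOH duplicate 2, and it is named after its values were seen.

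Of 23 goblet cell genes counted, 1 rose, none fell and the median was 0.16, with 3 rises and 2 falls with the block and 4 rises with library size alone. The riser was *Foxa3*, a transcription factor, with 54.5 and 54.7 CPM with EtOH and 146 and 113 CPM with 4-HT, a change of 1.25 ± 0.21 (adjusted p = 0.000567). *Muc2*, the main mucin, had 772 and 1067 CPM with EtOH and 745 and 779 CPM with 4-HT, a change of −0.27 that did not pass (adjusted p = 0.668). Of 25 enteroendocrine genes, only *Neurog3*, the factor of endocrine precursors, passed without the block, with 5.42 and 4.71 CPM with EtOH and 15.9 and 10.9 CPM with 4-HT, a rise of 1.41 ± 0.34 (adjusted p = 0.00641). With the block the hormone genes *Sct* and *Nts*, named after their values were seen, were called as falls. *Sct* had 21.5 and 6.89 CPM with EtOH and 5.44 and 2.62 CPM with 4-HT (change −1.81, adjusted p = 0.133, and 0.00813 with the block). *Nts* had 31.7 and 7.32 CPM with EtOH and 2.92 and 2.30 CPM with 4-HT (change −2.90, adjusted p = 0.0896, and 0.00977 with the block). In both genes EtOH duplicate 1 stood far above the other libraries, and without it the changes were −0.77 and −1.48. Without EtOH duplicate 2 they were −2.41 and −3.60. *Chga*, of mature endocrine cells, had 93.9 and 56.7 CPM with EtOH and 104 and 59.1 CPM with 4-HT, where the libraries followed the duplicate and not the treatment. None of 16 tuft cell genes passed, with a median of −0.61 and 1 fall with the block. *Dclk1*, their common marker, had 15.4 and 10.6 CPM with EtOH and 4.18 and 6.15 CPM with 4-HT (change −1.33, adjusted p = 0.0854).

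Of 31 DNA replication genes, 30 had a positive change, 13 rose, none fell and the median was 0.66. With the block 21 rose, and 23 with library size alone. *Mcm4*, a subunit of the replicative helicase, had 53.6 and 51.3 CPM with EtOH and 111 and 107 CPM with 4-HT, a change of 1.05 ± 0.19 (adjusted p = 0.000851). *Mcm2* rose by 1.02, *Mcm6* by 0.88, *Mcm3* by 0.87 and the helicase partner *Gins1* by 0.95. *Pcna*, the sliding clamp, had 86.2 and 75.6 CPM with EtOH and 123 and 105 CPM with 4-HT, a change of 0.49 that did not pass (adjusted p = 0.0199) but did with the block (adjusted p = 0.00329) and with library size alone. All 28 mitosis genes had a positive change, between 0.23 and 0.88, and 8 rose, or 17 with the block and 23 with library size alone. *Kif20a*, a kinesin of cell separation, rose by 0.88, the spindle protein *Tpx2* by 0.75, the checkpoint kinase *Bub1b* by 0.68, *Prc1*, which bundles midzone microtubules, by 0.64 and cyclin B1 (*Ccnb1*) by 0.61. *Mki67*, the usual proliferation marker, had 115 and 152 CPM with EtOH and 148 and 165 CPM with 4-HT, and its change of 0.23 did not pass (adjusted p = 0.486).

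Of 30 genes of the Myc network and ribosome biogenesis, 14 rose, 2 fell and the median was 0.65. *Mycl*, a paralog of *Myc*, had 32.1 and 29.9 CPM with EtOH and 91.3 and 68.6 CPM with 4-HT, a change of 1.37 ± 0.19 (adjusted p = 8.32e-05). The nucleolar genes *Mybbp1a*, *Nop56* and *Noc2l* rose by 0.85, 0.83 and 0.79. The genes that fell were *Mxd1* and *Max*. *Mxd1*, which competes with Myc for Max and rises in differentiating cells, had 520 and 523 CPM with EtOH and 223 and 208 CPM with 4-HT, a change of −1.27 ± 0.33 (adjusted p = 0.00957). *Max*, the shared partner, had 108 and 102 CPM with EtOH and 67.7 and 56.1 CPM with 4-HT, a change of −0.76 ± 0.17 (adjusted p = 0.00364). With library size alone 21 genes of the list rose and neither fall passed.

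**Figure D3:**
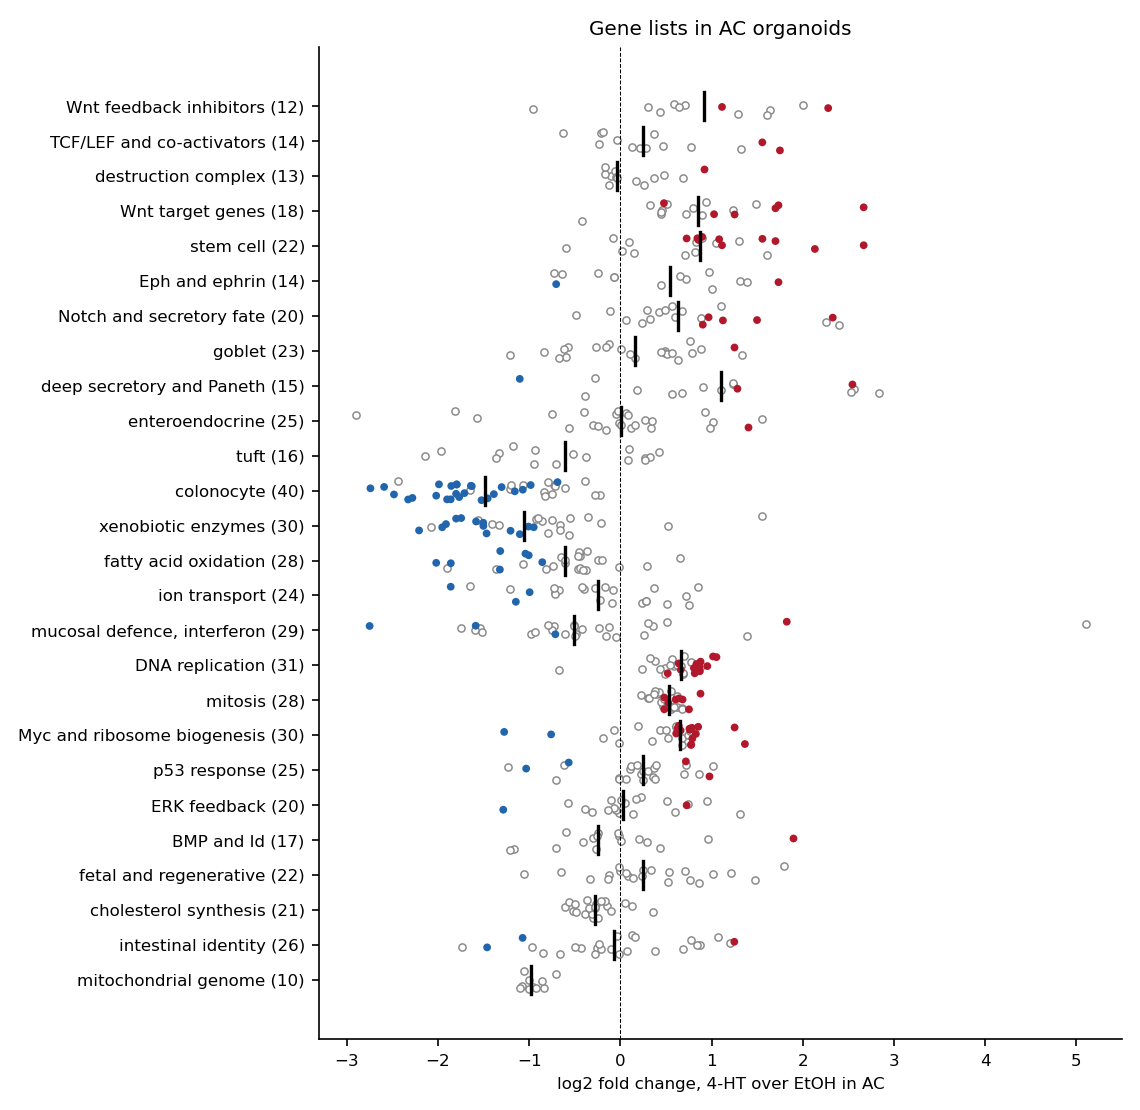
Log2 fold changes in AC organoids (x axis), 4-HT over EtOH, of the members of 26 gene lists (rows, with the number counted). Each point is a gene, filled red or blue where it rose or fell at an adjusted p-value under 0.01 and open where it did not, and the bar is the list's median, from −1.49 for colonocyte genes to 1.10 for deep secretory and Paneth genes.

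Of 29 counted genes of mucosal defense and the interferon response, 3 fell, or 5 with the block, 1 rose and the median was −0.51. In all, 7 had a positive and 22 a negative change, and the largest positive change, 5.1, did not pass. *Ifit1*, an interferon-induced RNA sensor, had 22.1 and 20.8 CPM with EtOH and 3.46 and 2.91 CPM with 4-HT, a change of −2.75 ± 0.62 (adjusted p = 0.00378). *Irf7*, the factor that amplifies the interferon response, had 78.5 and 71.3 CPM with EtOH and 28.4 and 21.6 CPM with 4-HT, a change of −1.58 ± 0.22 (adjusted p = 9.11e-05). *H2-K1*, a class I antigen-presenting molecule, had 907 and 880 CPM with EtOH and 576 and 515 CPM with 4-HT, a change of −0.71 ± 0.12 (adjusted p = 0.000381). *Trim30d*, of an interferon-induced gene family and outside the list, had 11.9 and 9.75 CPM with EtOH and 1.20 and 1.40 CPM with 4-HT, a change of −3.06 ± 0.55 (adjusted p = 0.000865). *Cxcl10*, an interferon-induced chemokine, went the other way, from 0.877 and 0.799 CPM to 3.62 and 2.34 CPM, a rise of 1.82 ± 0.47 (adjusted p = 0.00981).

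The upstream windows of *Ifit1* and *Cxcl10* are shown because both hold the interferon-type motif, which is GAAA, any 2 bases and GAAA again, searched on both strands, although the genes changed in opposite directions. All 4 defense genes that passed have a RefSeq window, these 2 hold the motif, and 2.98% of all windows do. The windows lie at chr19:34640639-34640888 on the plus strand and chr5:92348890-92349139 on the minus strand in GRCm38.p6, with matches in capitals.
Ifit1: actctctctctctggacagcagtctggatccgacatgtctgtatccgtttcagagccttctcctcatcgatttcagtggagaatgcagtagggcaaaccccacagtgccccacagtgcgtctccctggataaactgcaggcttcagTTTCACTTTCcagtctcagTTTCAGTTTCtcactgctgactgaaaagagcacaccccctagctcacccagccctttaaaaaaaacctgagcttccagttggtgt
Cxcl10: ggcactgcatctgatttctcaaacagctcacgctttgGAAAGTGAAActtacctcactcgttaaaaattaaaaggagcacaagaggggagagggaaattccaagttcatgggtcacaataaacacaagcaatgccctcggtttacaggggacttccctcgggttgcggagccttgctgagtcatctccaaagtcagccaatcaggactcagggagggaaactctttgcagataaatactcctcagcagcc
The *Ifit1* window holds 2 matches and the *Cxcl10* window 1.

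Of 25 p53 response genes, *Aen* and *Gtse1* rose by 0.72 and 0.98 and *Sesn1* and *Perp* changed by −1.03 and −0.57, with a median of 0.25, and with library size alone 4 rose and none fell. *Cdkn1a*, the cell cycle inhibitor p21, had 404 and 370 CPM with EtOH and 258 and 246 CPM with 4-HT, and its change of −0.62 did not pass (adjusted p = 0.157). *Mdm2* changed by 0.23 without passing. *Trp53* itself, which carries no engineered allele in AC organoids and is named after its values were seen, had 108 and 115 CPM with EtOH and 193 and 181 CPM with 4-HT, a rise of 0.74 (adjusted p = 0.00168). Of 20 ERK feedback genes, *Phlda1* rose by 0.73 and *Dusp5* changed by −1.28, and 6 rose and 1 fell with the block. Of 17 BMP and Id genes, *Atoh8* rose by 1.89 (adjusted p = 0.00106), or by 1.26 without 4-HT duplicate 1, and 2 rose and 2 fell with the block. The BMP target *Id1* had 87.2 and 53.4 CPM with EtOH and 88.6 and 28.6 CPM with 4-HT, again split by duplicate. None of 22 fetal and regenerative genes passed under TMM scaling without the block, while 2 rose with the block and 1 with library size alone. *Ly6a*, their main marker, had 752 and 930 CPM with EtOH and 805 and 980 CPM with 4-HT, and *Clu* had 210 and 326 CPM with EtOH and 222 and 410 CPM with 4-HT, where both genes followed the duplicate. Of 9 estrogen response genes, 1 passed, the estrogen receptor *Esr1*, with a change of −0.60 (adjusted p = 0.00781). All 10 counted protein genes of the mitochondrial genome had a negative change, with a median of −0.98, and none passed, while 1 fell with the block.

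The 15 largest rises also held genes outside the lists. *Dpysl5*, a cytosolic protein of axon guidance, had the largest, from 8 and 13 counts to 92 and 90 counts, 2.82 ± 0.54 on the log2 scale (adjusted p = 0.00135). *Jaml*, an adhesion molecule, rose by 2.27, and *Rgcc*, a cell cycle regulator, rose by 2.08 from 9.73 and 8.07 CPM to 52.7 and 22.7 CPM, or by 1.35 without 4-HT duplicate 1. The sodium channel subunit *Scn2b*, the lipid transporter *Abcg1*, the secreted protein *Ccdc3*, the colipase *Clps* and the gene *Gm17322* rose by 1.90 to 2.00, each from under 2 CPM with EtOH.

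Among the 15 largest falls, *Akr1c18*, a steroid-reducing enzyme, had 220 and 133 counts with EtOH and 15 and 14 with 4-HT, a change of −3.87 ± 0.55 (adjusted p = 0.000104). *Cyp4v3*, a fatty acid hydroxylase, changed by −2.70, the sulfotransferase *Gal3st2* by −2.91 and the glutamate receptor subunit *Grin3a* by −2.77. *Tnfaip8l2*, *Gm8909*, *Gm43289* and *Olfr165* changed by −2.83 to −3.17. Without 4-HT duplicate 1 the changes of *Tnfaip8l2*, *Gm8909* and *Grin3a* were −4.97, −4.71 and −3.96, and without 4-HT duplicate 2 they were −2.41, −2.12 and −2.13. The potassium channel *Kcnh1* had 28 and 16 counts with EtOH and 2 and 1 with 4-HT, which gives a level 17.9-fold lower with 4-HT, with a 95% counting interval of 5.74 to 90.1. For *Il1f8*, a cytokine of the interleukin 36 group, the level was 13.2-fold lower (5.31 to 42.2), and for *Gm18830* 11.5-fold lower (4.58 to 37.0). These intervals cover counting error only. *Trim30d*, *Gm8909*, *Olfr165*, *Gal3st2* and the Cyp, Ugt, Ces and Ly6 genes belong to families with close copies, and how reads shared between copies were counted is not given in the sources used here.

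The response of AC organoids was then set beside that of PAC and BAC organoids, which share no library with it. Of the 980 genes called in AC, 979 had the same direction in PAC, where 916 passed, and 973 in BAC, where 937 passed. Of all genes tested, 11.2% rose and 12.2% fell in PAC, and 20.3% rose and 21.5% fell in BAC. The median absolute change of these genes was 0.82 in AC, where they were chosen, 0.70 in PAC and 0.99 in BAC, and 699 of them changed more in BAC than in AC and 186 more in PAC than in AC. Across the 980 genes, which are not independent replicates, Pearson's r of the changes was 0.96 between AC and PAC and 0.92 between AC and BAC, and across all genes it was 0.78 and 0.71. *Apc* changed by 0.92 in AC, 0.67 in PAC and 0.88 in BAC. *Axin2*, which did not pass in AC, passed in PAC with 0.67 and in BAC with 0.86, but its change in AC differed by −0.37 ± 0.32 from PAC and by −0.56 ± 0.32 from BAC, and neither difference passed (adjusted p = 1 and 0.498). The colonocyte list had medians of −1.49 in AC, −1.21 in PAC and −1.77 in BAC.

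For no gene did the change in AC differ from that in PAC at an adjusted p under 0.01 by edgeR's test, with a smallest adjusted p of 1 and 198 genes at an unadjusted p under 0.05. Limma-voom and DESeq2 gave 0 genes as well, with 195 and 231 genes at an unadjusted p under 0.05. The replicate block gave 0 genes too, with 568 at an unadjusted p under 0.05. Each of these counts is below what that p would give among 13519 genes if none differed. Small p-values were thus rarer than under no difference, and 0 genes does not show that the changes were equal. The median standard error of the difference was 0.26 on the log2 scale, the same as for AC and BAC. *Scn2b*, among the largest rises in AC, changed by −0.66 in PAC, a difference of 2.66 ± 0.56 that did not pass (adjusted p = 1), so larger differences too could miss the threshold. The change differed between AC and BAC for 29 genes, 20 with a higher value in AC (0.148% of those tested) and 9 with a lower one (0.0666%). All 29 passed in BAC and 26 of them did not pass in AC. AC came from 1 donor line and PAC and BAC from 2 each. A difference between genotypes therefore cannot be told apart from one between donor lines. With the replicate block the number was 199. It was 4 without EtOH duplicate 1, 2 without EtOH duplicate 2, 2 without 4-HT duplicate 1 and 15 without 4-HT duplicate 2.

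Among genes with a higher change in AC, *Cyp2c68*, a cytochrome P450, changed by −1.01 in AC and −5.06 in BAC, a difference of 4.05 ± 0.63 (adjusted p = 0.00247). Its change in AC was −1.63 without 4-HT duplicate 1. *Clps* rose in AC by 1.98 and fell in BAC by 1.45. *Ccl6*, a chemokine, had 14.1 and 20.5 CPM with EtOH and 35.9 and 21.9 CPM with 4-HT in AC, where its change of 0.74 did not pass, and changed by −2.24 in BAC. *Tnfsf10*, the death ligand TRAIL, and *Slc1a1*, a glutamate transporter, differed by 2.95 and 2.70. Among the 9 genes with a lower change in AC were *Ly6g*, *Ly6c1* and *Ly6c2*, which encode surface proteins. *Ly6g* had 419 and 498 CPM with EtOH and 371 and 402 CPM with 4-HT in AC, while in BAC it went from 407 ± 69.2 to 1182 ± 41.7 CPM (SD, n = 4), a difference in change of −1.78 ± 0.33 (adjusted p = 0.00647). *Ly6c1* differed by −2.08, and *Ly6c2*, with 8 and 2 counts with EtOH and 11 and 4 with 4-HT in AC, by −7.66. The BAC libraries of *Ly6c2* held 0 to 3 counts with EtOH and 197 to 908 with 4-HT, so this fitted value depends on counts near 0 and gives no exact size. *Cav2*, a caveolar protein, had 32.9 and 41.5 CPM with EtOH and 36.5 and 56.5 CPM with 4-HT in AC and differed by −1.54, and *Smim3* by −1.51.

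**Figure D4:**
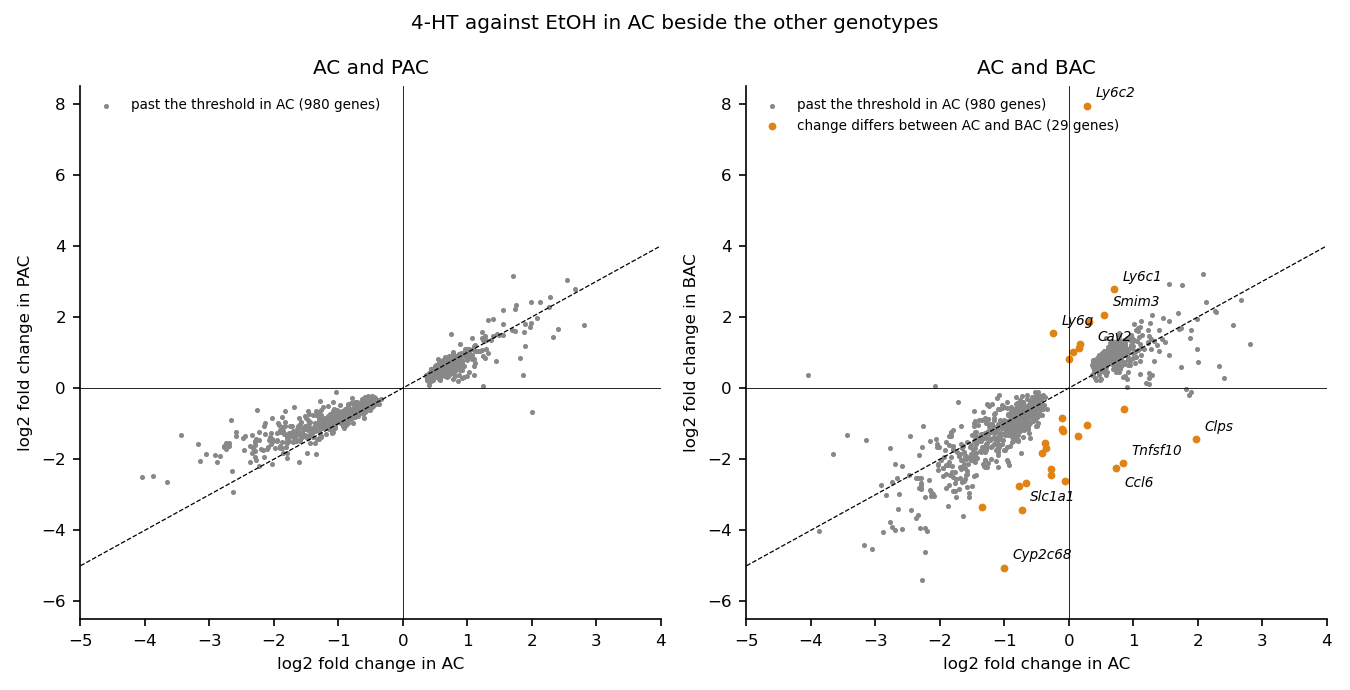
Log2 fold changes, 4-HT over EtOH, of the 980 genes called in AC (gray) in AC (x axis) against PAC (left, y axis) and BAC (right, y axis), with the dashed line at equal change. Orange points are the 29 genes whose change differed between AC and BAC, of which 26 did not pass in AC, and for AC and PAC no gene passed the test of the difference.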

How the data were processed

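RNA-seq libraries of colon organoids were analysed from the counts per gene that the authors deposited as whole numbers without normalization. Per the submitters' notes, reads were processed with Trimmomatic 0.39 and STAR 2.5.2b against GRCm38. The counting program, its annotation and its use of strand are not given in the sources used here. All 13519 genes of the file were tested, GENCODE gave a symbol for 13479 of them, and the lowest sum of a gene over the 28 libraries was 116. Totals ranged from 20577276 to 40068718, and the AC libraries lay within that range. Intervals from counts cover counting error only, since reads carried no molecular identifiers.

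After TMM scaling, edgeR's quasi-likelihood test (version 4.0.16, R 4.3.3) was fitted to the 8 groups of genotype and treatment, so that all libraries shared 1 estimate of the spread, and Benjamini-Hochberg adjusted p-values over every gene were called under 0.01. Standard errors were taken from the fold change and its F statistic. An exact permutation test of 2 against 2 libraries cannot give a two-sided p under 0.333 and was not used. Log2 CPM within a duplicate used a prior count of 2.

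Samples were grouped by the labelled genotype and treatment. The methods state 2 donor mice per genotype, while the labels give 1 line for AC, and a figure legend of the study describes the replicates as different passages. Same-numbered EtOH and 4-HT libraries deviated together from the mean of their own line and treatment (r between 0.281 and 0.479 in 7 lines, 0.429 in AC), and on this correlation, above 0.1 in every line, the numbers were taken to pair the samples. A BAC library with 4-HT carries no number in its label and was taken as duplicate 1 of its line. AC libraries with the same label differed by far more than counting error. Alternatives were limma-voom (limma 3.58.1), DESeq2 1.42.0, its size factors, library size alone, filterByExpr, the replicate block, the AC libraries alone, other thresholds, thinning and each AC library left out, and, added after seeing the data, the PAC 4-HT libraries of duplicate 1 left out.

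The members and gene lists were chosen with earlier results of these data known. Genes were named by a rule, the 15 largest rises and falls in AC that passed, did not overlap and averaged 10 counts or more, up to 5 members per list and direction past the threshold, a set of defining markers, and the 5 largest differences per direction between AC and PAC or BAC. Exceptions are marked in the text, and some genes that the rule names are not reported here. Promoter windows, 250 bases upstream, came from RefSeq (GRCm38.p6). Figures were drawn with Python 3.11.15 and matplotlib 3.10.9.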

Additional observations from a re-analysis of the deposited data

Results flagged for a closer look

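The change after 4-HT differed between AC and BAC organoids, by edgeR's test of the difference, for 10 of the named genes. Genotype cannot be told apart from donor line in this comparison. The difference, AC minus BAC on the log2 scale, was 4.05 for *Cyp2c68*, 3.42 for *Clps*, 2.98 for *Ccl6*, 2.95 for *Tnfsf10* and 2.70 for *Slc1a1*. It was −7.66 for *Ly6c2*, −2.08 for *Ly6c1*, −1.78 for *Ly6g*, −1.54 for *Cav2* and −1.51 for *Smim3*. *Ly6c2* had 16.6 ± 7.04 CPM with 4-HT in BAC (SD, n = 4) but 0 to 3 counts with EtOH there, and its AC libraries held 2 to 11 counts, so the fitted size of its difference is not exact. *Clps* was also low, at 2.59 and 5.12 CPM in the AC libraries with 4-HT. For these genes, 20 groups of 4 BAC libraries were searched for a library far from the others and 0 were found.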

How the results depend on the processing

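Of the 137 named genes, 98 passed the threshold. None of these 98 reversed under any alternative run, but their calls depended on the libraries. Limma-voom kept 90, DESeq2 kept all 94 for which it gave an adjusted p, DESeq2's size factors kept 97 (*Apc* was lost), filterByExpr and the replicate block kept all 98, library size alone kept 88 (*Clcn2*, *Ugt2b5*, *Nr3c2*, *Mxd1*, *Max*, *Sesn1*, *Perp*, *Esr1*, *Cldn7* and *Grin3a* lost their calls, while *Hes1*, *Lyz1* and *Pcna* gained one), thinning to the smallest total kept 93, and the AC libraries alone kept 42, or 97 with the replicate block. With 1 AC library left out, the lone library was assumed to vary like the other groups, and between 7 and 47 were kept.

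The number of genes that rose was 406 and of those that fell 574. These were 730 and 881 with DESeq2, 1511 and 302 with library size alone, 1007 and 1216 with the replicate block, 37 and 216 in the AC libraries alone, 1397 and 1951 there with the replicate block, 1106 and 1169 at an adjusted p of 0.05, and 69 and 283 with a 2-fold change required. They ranged from 14 to 110 and from 56 to 368 with 1 AC library left out. The number that differed between AC and BAC was 29, and 173 with DESeq2, 199 with the replicate block, 160 at an adjusted p of 0.05 and 2 to 15 with 1 AC library left out. It stayed at 0 for AC and PAC under each alternative run. The replicate block changed no other call that the text names beyond those given with their values. The causes were not tested.

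With library size alone *Ctnnb1* changed by 0.0315 and *Cdh1* by 0.0423, both reversed. With 1 AC library left out, genes that had not passed changed direction. The range was −2.40 to 0.0314 for *Aqp8*, −0.35 to 0.52 for *Chga*, −0.0413 to 0.46 for *Mdm2*, −0.0642 to 0.25 for *Ly6a*, −0.27 to 0.62 for *Clu*, −1.30 to 0.33 for *Id1*, −0.76 to 0.11 for *Cdx2*, −0.93 to 0.24 for *Vim*, −0.49 to 1.52 for *Ly6c2* and −0.0266 to 0.60 for *Cav2*. Leaving out the PAC 4-HT libraries of duplicate 1, chosen after seeing the data, gave 361 and 527 genes in AC. It kept 89 of the 98 named calls. A prior count of 0.5 or 5 moved no list median within a duplicate by more than 1 SD.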
